A study of Homo sapiens and Mus musculus with 69 samples.

Results

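The *SNAI*, *ZEB*, *TWIST* and *PRRX1* genes encode transcription factors that drive epithelial-mesenchymal transition (EMT), and *OVOL1* and *GRHL2* encode factors that keep cells epithelial. Together they make up the 9 genes described here, namely *SNAI1*, *SNAI2*, *ZEB1*, *ZEB2*, *TWIST1*, *TWIST2*, *PRRX1*, *OVOL1* and *GRHL2*. They were chosen by symbol for what they are known to do and not by a threshold on their values, but with earlier results of these data known. All 9 were found among the 20516 genes of the human table, and all 9 mouse symbols (*Snai1* to *Grhl2*) among the 18501 genes of the table of KP1 cells. On GRCh37, the assembly behind the hg19 build of the human files, the genes are *SNAI1* (chr20:48599517-48605423, + strand), *SNAI2* (chr8:49830157-49834299, - strand), *ZEB1* (chr10:31607424-31818742, + strand), *ZEB2* (chr2:145121931-145278624, - strand), *TWIST1* (chr7:19060614-19157259, - strand), *TWIST2* (chr2:239756673-239832230, + strand), *PRRX1* (chr1:170631869-170708562, + strand), *OVOL1* (chr11:65554534-65564685, + strand) and *GRHL2* (chr8:102504667-102681954, + strand). Antisense genes are annotated at *ZEB1*, *ZEB2* and *OVOL1*, and since the sources used here do not say whether reads were counted by strand, reads of the 2 strands there cannot be told apart.

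During EMT a cell loses cell-cell junctions and gains motility and matrix production. The zinc finger proteins SNAI1 (Snail) and SNAI2 (Slug), the zinc finger homeodomain proteins ZEB1 and ZEB2 and the basic helix-loop-helix proteins TWIST1 and TWIST2 repress *CDH1* and other epithelial genes, directly or through partners, and PRRX1 is a paired-related homeodomain factor of mesenchyme. OVOL1 and GRHL2 repress *ZEB1* and sustain epithelial genes. *SNAI2* is also known as a target gene of Notch signaling, and small cell lung cancer (SCLC) cells mostly grow in suspension as neuroendocrine (NE) cells from which Notch signaling can shift them to a non-NE state.

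The study sequenced polyA RNA of cultured SCLC lines in 23 groups of 3 libraries, 69 libraries in all, 60 of them of human lines. H82, H524 and H69 cells were sequenced as parental cells and with a doxycycline-inducible vector for the NOTCH1 intracellular domain (*N1ICD*), without and with doxycycline. The H82 *N1ICD* line was also given as a *REST* KO and as a line labelled STING KO, each without and with doxycycline, and H524 cells also carried an inducible *REST* vector. COR-L88 cells received DMSO, TAS1440 (a reversible inhibitor of the histone demethylase LSD1) or TAS1440 plus a γ-secretase inhibitor (GSI), and a COR-L88 line labelled STING KO received DMSO or TAS1440. The mouse line KP1 received DMSO, TAS1440 or TAS1440 plus GSI. Per the study's methods, doxycycline was given at 1 μg/mL for at least 28 days, and its legends give 56 days for H82 cells with and without *REST* KO and for H524 cells and more than 56 days for H69 cells. TAS1440 was given at 100 nM for 28 days in COR-L88 cells and longer in KP1 cells, and the GSI was BMS-708163 at 2 μM in COR-L88 and DBZ at 10 μM in KP1 cells. With overexpression the adherent cells were collected, so the vector's product and the choice of attached cells cannot be told apart. The KO lines were made with CRISPR-Cas9, and single-cell KO clones are shown in the study, so a sequenced KO line may be 1 clone, but which one it was is not given in the sources used here. Libraries are numbered below as in their titles, and nothing states that libraries of a group came from separate cultures, so *P* values measure only the spread between these libraries.

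All levels below are log2(RPKM + 1), where RPKM counts reads per kilobase of gene, scaled to library size, and all differences are log2 fold changes on this scale, which understates the change of genes near 0. A gene was tested if its level was at least 1 in at least 3 libraries of its line, and it was called where the limma adjusted *P* was under 0.05 and the change was 1 or more in size. Read counts are not part of the tables. Relative library size, read from the lowest values, was 0.695 to 1.54 times the median in the human table and 0.871 to 1.07 times in KP1. *NOTCH1* was at 4.26 to 10.74 in the N1ICD libraries with doxycycline and at 0.38 to 2.15 without it. *REST* was at 3.99 to 4.20 (no doxycycline) and 4.95 to 5.89 (doxycycline) in the *REST* KO libraries, against 4.42 to 4.80 and 6.13 to 6.48 in the intact line, so its mRNA was present in the KO. *TMEM173*, the symbol of STING in the tables, was at 1.27 to 2.04 in the H82 libraries labelled STING KO with doxycycline and at 1.07 to 1.17 in the intact ones, that is, not lower. In COR-L88 cells with TAS1440 it was at 0.96 to 1.16 in the line labelled STING KO and at 2.03 to 2.54 in the intact line. These mRNA levels do not show whether the protein was lost, and the study examined its *REST* and *STING1* KO clones by immunoblot.

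Of the RefSeq promoters (GRCh38.p14, 250 bases before to 50 after a start site), 10 windows belonged to 4 of the 9 genes, 7 of them to *ZEB1* and 1 each to *ZEB2*, *PRRX1* and *TWIST2*. Windows of *ZEB1*, *ZEB2* and *PRRX1* are shown, since the responses of these 3 genes to N1ICD differed between lines when tested. Capitals mark the E-box CACCTG or CAGGTG on either strand, the letters that SNAI and ZEB proteins bind, and TGGGAA or TTCCCA, the core of the site of RBPJ, the DNA-binding partner of Notch. The windows are *ZEB1* chr10:31318966-31319265 (+ strand), *ZEB2* chr2:144520070-144520369 (- strand) and *PRRX1* chr1:170663881-170664180 (+ strand).
ZEB1: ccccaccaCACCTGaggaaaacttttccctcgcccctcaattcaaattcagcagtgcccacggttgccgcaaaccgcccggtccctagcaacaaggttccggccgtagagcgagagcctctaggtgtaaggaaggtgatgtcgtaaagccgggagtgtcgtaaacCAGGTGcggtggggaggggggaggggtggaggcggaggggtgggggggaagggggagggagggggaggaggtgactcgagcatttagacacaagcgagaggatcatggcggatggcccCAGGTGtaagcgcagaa
ZEB2: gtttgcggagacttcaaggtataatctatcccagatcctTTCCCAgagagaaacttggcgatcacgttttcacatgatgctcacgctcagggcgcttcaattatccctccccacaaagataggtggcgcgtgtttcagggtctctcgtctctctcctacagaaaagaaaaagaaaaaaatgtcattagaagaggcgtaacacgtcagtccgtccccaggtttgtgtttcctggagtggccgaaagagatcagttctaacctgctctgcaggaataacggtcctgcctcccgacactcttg
PRRX1: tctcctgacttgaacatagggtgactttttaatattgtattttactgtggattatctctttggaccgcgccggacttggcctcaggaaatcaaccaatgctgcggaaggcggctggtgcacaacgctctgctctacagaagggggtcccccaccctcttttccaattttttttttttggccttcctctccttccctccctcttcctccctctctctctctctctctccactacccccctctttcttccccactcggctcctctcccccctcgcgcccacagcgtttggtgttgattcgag
The *ZEB1* window shown held 3 E-box matches, the most of the 7 *ZEB1* windows. A second *ZEB1* window held 1, so 2 of the 7 had a match. The *ZEB2* window held 1 RBPJ core and no E-box, and the windows of *PRRX1* and *TWIST2* held neither. Of all 35116 promoters of this length, from any chromosome, 20.6% held an E-box and 24% an RBPJ core, so these matches are a description of the letters only.

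Before any treatment the lines differed in which of the factors they expressed (see the plot of levels in the 60 human libraries). *SNAI1* was present in every human library, with means from 2.87 to 7.63 over all human groups, treated and engineered ones included. Its means were 4.50 in parental H69 cells, 6.01 and 6.13 in parental H82 and H524 cells and 6.21 in COR-L88 cells with DMSO. Parental H82 cells had *SNAI1* at 7.17, 5.30 and 5.55 and *ZEB1* at 2.29, 3.32 and 2.72, while *SNAI2* was at 0, 0.06 and 0.27. Parental H524 cells had *SNAI1* at 6.27, 6.32 and 5.80, *ZEB1* at 3.71, 3.47 and 3.57 and, unlike the other lines, *PRRX1* at 2.12, 1.72 and 2.47. Parental H69 cells had a mixed set, with *SNAI2* at 3.65, 4.02 and 3.58, *TWIST1* at 2.29, 2.39 and 2.44 and the epithelial factor *OVOL1* at 2.04, 2.25 and 2.38, whereas *ZEB1* stayed under 1 in all 3 libraries. COR-L88 cells with DMSO had the epithelial pair, *GRHL2* at 4.02, 3.99 and 4.00 and *OVOL1* at 2.93, 3.00 and 2.72, beside *SNAI1* at 5.88, 6.50 and 6.25, and *SNAI2* was listed at 0 in all 3. Outside COR-L88, *GRHL2* did not pass 0.58 in any human library. *TWIST2* was the least expressed member, with a highest level of 1.17 in 1 H524 library and 0 in every H82 group but 1 and in every COR-L88 library.

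**Figure D1:**
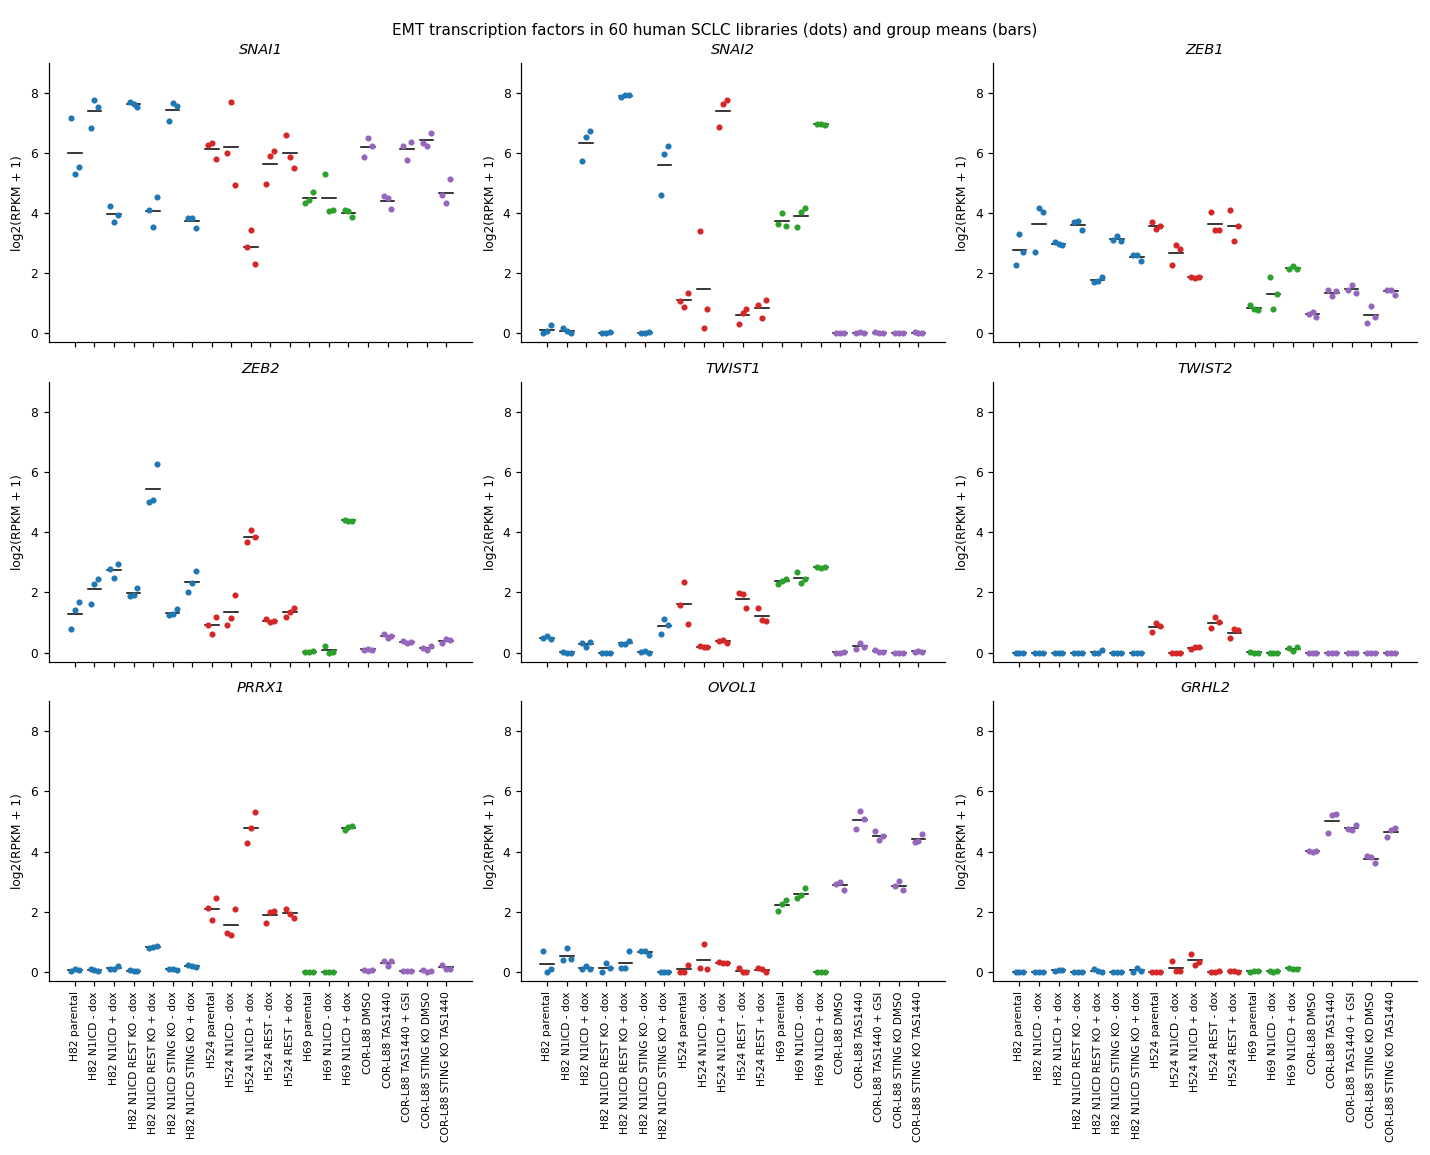
Level of each factor as log2(RPKM + 1) on the vertical axis in the 60 human libraries (dots, coloured by line) with the mean of each group of 3 libraries (bars). *SNAI2* lay between 4.60 and 7.95 in every N1ICD library with doxycycline, and *GRHL2* was above 3 in COR-L88 libraries alone.

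N1ICD raised *SNAI2* in H82 cells and lowered *SNAI1*. *SNAI2* was at 0.16, 0.07 and 0 without doxycycline and at 5.73, 6.52 and 6.74 with it. All 3 libraries with doxycycline lay far above all 3 without, a log2 fold change of 6.25 (SE 0.30, adjusted *P* = 1.72e-11, n = 3 libraries in each group). *SNAI2* passed the filter on low values in H82 cells only through libraries with doxycycline, so that it had to be higher there. *SNAI1* moved the other way, from 6.85, 7.77 and 7.55 to 4.24, 3.72 and 3.93. Its groups did not overlap either, and its level fell by 3.43 (SE 0.37, adjusted *P* = 6.16e-07), yet *SNAI1* was still clearly expressed. Parental H82 cells had a *SNAI1* mean of 6.01, between the means of the vector line without (7.39) and with doxycycline (3.96). Thus 2 of the 4 members tested were called, where 27.1% of the 13903 genes tested in this comparison were.

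The *ZEB* genes of H82 cells shifted less. *ZEB2* was at 1.63, 2.27 and 2.46 without and 2.79, 2.49 and 2.96 with doxycycline, groups that did not overlap but whose difference of 0.63 (SE 0.31) missed the threshold (adjusted *P* = 0.097). *ZEB1* was at 2.72, 4.19 and 4.03 without and 3.04, 2.97 and 2.94 with it, and these groups overlapped through library 4. The difference of -0.67 (SE 0.29, adjusted *P* = 0.0631) became -1.13 (adjusted *P* = 0.000269) without library 4 and was then called, but -0.40 (adjusted *P* = 0.298) without library 5. Parental H82 cells had a *ZEB1* mean of 2.78, not above the mean of 2.98 in the vector line with doxycycline. *TWIST1*, *TWIST2*, *PRRX1*, *OVOL1* and *GRHL2* stayed under 1 in all 6 libraries and were not tested. Among them *OVOL1* went from 0.39, 0.77 and 0.42 to 0.09, 0.18 and 0.09 without overlap. In bulk RNA, more cells that express a gene and more of its RNA in each cell cannot be told apart. The summed level of 10 NE markers was 13.15 to 14.49 without and 8.05 to 8.84 with doxycycline, and that of 4 fibroblast markers (*PDGFRA*, *PDGFRB*, *DCN*, *LUM*) 0.82 to 1.42 and 5.52 to 6.44, and their part in the result was not tested.

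**Figure D2:**
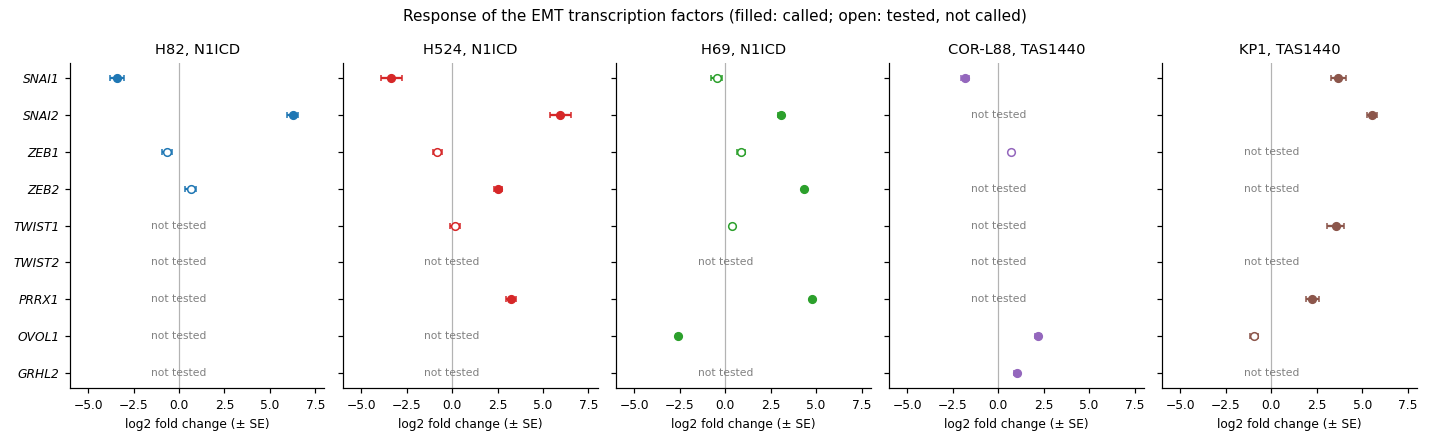
Log2 fold change of each factor (horizontal axis, on the log2(RPKM + 1) scale, bars are the SE of limma) for N1ICD with against without doxycycline in 3 lines and for TAS1440 against DMSO in COR-L88 and KP1 cells. Filled points were called, open points were tested and not called, and *SNAI1* lies at -3.43 in H82 but at 3.69 in KP1 cells.

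In H524 cells N1ICD moved the same pair and added *ZEB2* and *PRRX1*. *SNAI1* fell from 6.00, 7.70 and 4.93 to 2.86, 3.44 and 2.30, a change of -3.34 (SE 0.56, adjusted *P* = 0.000389). *SNAI2* rose from 3.41, 0.17 and 0.81 to 6.86, 7.63 and 7.76, a change of 5.95 (SE 0.59, adjusted *P* = 3.25e-06). Library 22, without doxycycline, was well above the other 2 of its group for *SNAI2*, and the groups of both genes were still separate. *ZEB2* rose from 0.91, 1.16 and 1.92 to 3.68, 4.07 and 3.83 (2.53, SE 0.23, adjusted *P* = 1.34e-06). *PRRX1* rose from 1.30, 1.24 and 2.09 to 4.28, 4.79 and 5.31 (3.25, SE 0.29, adjusted *P* = 9.92e-07). For both genes every library with doxycycline exceeded every other H524 library. With these, 4 of 6 members tested were called, against 18.6% of all 13648 genes tested.

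*ZEB1* in H524 cells was lower with N1ICD, at 1.88, 1.84 and 1.87 against 2.28, 2.94 and 2.82. The groups did not overlap and the adjusted *P* was 0.0254, but the difference of -0.82 (SE 0.26) was under the fold required. Without library 22 it was -1.02 (adjusted *P* = 0.0102) and was called, whereas without library 23 it was -0.69. *TWIST1* was at 0.39, 0.41 and 0.31 with and 0.23, 0.19 and 0.19 without doxycycline, a difference of 0.17 (SE 0.27, adjusted *P* = 0.68). *TWIST2*, *OVOL1* and *GRHL2* were not tested, and none of the 3 passed 0.93 in these 6 libraries. The NE marker sum moved from 13.63 to 14.69 without to 9.80 to 10.85 with doxycycline and the fibroblast marker sum from 0.089 to 1.13 to 6.83 to 7.04, and their part was not tested.

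In H69 cells N1ICD raised *SNAI2*, *ZEB2* and *PRRX1* and *OVOL1* was lost. *SNAI2*, already expressed, rose from 3.56, 4.03 and 4.18 to 6.98, 6.98 and 6.94 (3.04, SE 0.17, adjusted *P* = 3.19e-07). *ZEB2* rose from 0.21, 0 and 0.01 to 4.42, 4.39 and 4.38 (4.33, SE 0.07, adjusted *P* = 2.59e-10). Without doxycycline *PRRX1* had a value of 0 in each of the 3 libraries, and it was at 4.73, 4.80 and 4.84 with doxycycline (adjusted *P* = 3.8e-11), so no fold is given. The mirror image was the epithelial factor *OVOL1*, at 2.44, 2.56 and 2.79 without doxycycline and listed at 0 in all 3 libraries with it (adjusted *P* = 7.01e-08). In total 4 of the 7 members tested were called, where 41.8% of the 13580 genes tested in H69 cells were, the highest share of the comparisons within a line. *ZEB2*, *PRRX1* and *ZEB1* passed the filter only through the libraries with doxycycline and so had to be higher in them.

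*SNAI1* did not follow the fall seen in H82 and H524 cells. It was at 5.31, 4.06 and 4.11 without and 4.11, 4.07 and 3.88 with doxycycline, overlapping groups with a difference of -0.48 (SE 0.30, adjusted *P* = 0.169). *ZEB1* went up instead of down, from 1.87, 0.80 and 1.30 to 2.15, 2.24 and 2.16. This difference of 0.86 (SE 0.22, adjusted *P* = 0.00645) was under the fold required and became 1.13 (adjusted *P* = 9.22e-05), a call, without library 49, and 0.59 without library 50. Library 49 had *REST* at 1.34, whereas the other 5 H69 libraries without doxycycline had it at 0 to 0.12. *TWIST1* was at 2.84, 2.80 and 2.86 with and 2.70, 2.31 and 2.44 without doxycycline (0.35, SE 0.10, adjusted *P* = 0.00948), a small difference without overlap. *GRHL2* and *TWIST2* did not pass 0.17 and were not tested. The NE marker sum went from 11.00 to 11.61 to 7.07 to 7.13 and the fibroblast marker sum from 0.155 to 0.612 to 6.98 to 7.01, and their part was not tested.

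Whether the lines responded differently was tested in 1 model of all 60 human libraries. Per the legends induction was longer in H69 cells than in the others, so line and time cannot be told apart in comparisons with H69. The rise of *NOTCH1* itself differed, by -3.17 for H82 minus H524 (adjusted *P* = 5.32e-06), 3.91 for H69 minus H82 (adjusted *P* = 2.15e-08) and 0.74 for H69 minus H524 (adjusted *P* = 0.237), and its part was not tested. Between H82 and H524 cells 2 of the 8 members tested differed, where 19.7% of 15888 genes did. *ZEB2* rose less in H82 cells, by a difference of responses of -1.90 (SE 0.32, adjusted *P* = 6.36e-06), and so did *PRRX1* (-3.18, SE 0.22, adjusted *P* = 7.1e-16). For *SNAI1* and *SNAI2* the differences between these lines were -0.09 (SE 0.60) and 0.30 (SE 0.54), with adjusted *P* of 0.937 and 0.72.

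H69 cells differed from H82 cells in 6 of 8 members (43.1% of all genes) and from H524 cells in 6 of 8 (36.8%), 2 comparisons that share the H69 libraries. The response of *SNAI1* was higher in H69, that is, its fall was missing, by 2.95 (SE 0.60, adjusted *P* = 4.1e-05) against H82 and 2.87 (adjusted *P* = 7.75e-05) against H524. *SNAI2* rose less in H69, by -3.21 (SE 0.54, adjusted *P* = 1.76e-06) and -2.91 (adjusted *P* = 1.27e-05), from a starting mean of 3.92 that was far above the 0.08 of H82 cells, and its levels with doxycycline were close (6.97 and 6.33). *ZEB1* differed by 1.52 (adjusted *P* = 0.000247) and 1.67 (adjusted *P* = 8.7e-05). *ZEB2* responded more strongly by 3.69 (adjusted *P* = 1.5e-13) and 1.80 (adjusted *P* = 6.5e-06), and *PRRX1* by 4.72 (adjusted *P* = 1.39e-22) and 1.54 (adjusted *P* = 1.12e-07). *OVOL1* was the sixth, at -2.19 (adjusted *P* = 6.75e-11) and -2.52 (adjusted *P* = 1.96e-12), and only H69 of these lines expressed it above 1 to begin with.

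REST is a repressor of neuronal genes that Notch signaling induces in SCLC. In H82 cells with its KO, the 4 members tested moved in the same directions as in the intact line, with *ZEB2* and *SNAI2* rising more. In N1ICD cells with *REST* KO, *ZEB2* was at 1.87, 1.93 and 2.15 without and 5.02, 5.06 and 6.28 with doxycycline. These were the highest *ZEB2* levels of the human libraries, and the change was 3.47 (SE 0.31, adjusted *P* = 3.18e-08) where the intact line had 0.63. *SNAI2* rose from 0, 0 and 0.04 to 7.87, 7.93 and 7.95 (7.90, SE 0.30, adjusted *P* = 6.19e-13). *ZEB1* fell from 3.70, 3.73 and 3.43 to 1.70, 1.73 and 1.87, a change of -1.85 (SE 0.29, adjusted *P* = 3.26e-05). *SNAI1* fell from 7.70, 7.63 and 7.54 to 4.11, 3.53 and 4.54, a change of -3.56 (SE 0.37, adjusted *P* = 2.77e-07). All 4 members tested were called here, with a background of 29.9%. This count is a description, since *SNAI2* passed the filter in H82 cells only through libraries with doxycycline. *PRRX1* reached 0.79, 0.81 and 0.86, from 0.05, 0.02 and 0.02, but was too low to be tested.

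With doxycycline in both, the *REST* KO libraries differed from the intact ones in 3 of 4 members tested (17.6% of all genes). *SNAI2* was higher by 1.58 (SE 0.30, adjusted *P* = 0.000504) and *ZEB2* by 2.70 (SE 0.31, adjusted *P* = 2.36e-06), and *ZEB1* was lower, a difference of -1.21 (SE 0.29, adjusted *P* = 0.00303). None of the 3 genes had overlapping groups. *SNAI1* differed by 0.10 (SE 0.37, adjusted *P* = 0.866), with overlap. Without doxycycline limma called 0 of 4 between KO and intact cells (6.24% of all genes, and 0 of 4 at an unadjusted *P* under 0.05), and the largest difference was 0.24 for *SNAI1* (adjusted *P* = 0.736). The difference of the doxycycline responses itself was called for *SNAI2* (1.65, SE 0.43, adjusted *P* = 0.0119) and *ZEB2* (2.84, SE 0.44, adjusted *P* = 0.000165), 2 of 4 against 12.9% of all genes. For *ZEB1* it was -1.19 (SE 0.41, adjusted *P* = 0.0542), and leaving out library 5 or 6 gave -1.46 (adjusted *P* = 0.0185) and -1.38 (adjusted *P* = 0.0364), both called, while leaving out library 4 gave -0.73 (adjusted *P* = 0.095). *NOTCH1* itself was also higher in these libraries, at 8.75 to 10.74 with doxycycline in the KO and 4.26 to 5.56 in the intact line, a difference of 4.69 (adjusted *P* = 2.06e-07), and the KO and the level of *NOTCH1* cannot be told apart. With doxycycline the KO had an NE marker sum of 8.40 to 8.63 and a fibroblast marker sum of 6.57 to 7.64. Such a sum is carried by the most abundant markers. Of 9 NE markers tested, 4 were called higher and 1 lower in the KO than in the intact line (median 1.30). Of all genes 9.44% were called higher and 8.21% lower there. The difference of the doxycycline responses was called higher for 6 of the 9 (median 2.47), and their part in the result was not tested.

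*REST* overexpression in H524 cells left the members without a call. *REST* was at 6.87 to 10.72 with doxycycline and 4.90 to 5.05 without. *SNAI1* was at 6.60, 5.88 and 5.52 with and 4.98, 5.91 and 6.07 without, a difference of 0.35 (SE 0.56, adjusted *P* = 0.796). *SNAI2* was at 0.95, 0.51 and 1.10 against 0.31, 0.68 and 0.81 (0.25, SE 0.59, adjusted *P* = 0.871). Both genes overlapped between the groups, as did *ZEB1*, *TWIST1* and *PRRX1*. *ZEB2* was at 1.19, 1.36 and 1.47 against 1.12, 1.00 and 1.06, which did not overlap, with a difference of 0.28 (SE 0.23, adjusted *P* = 0.573). So limma called 0 of 6 members tested, where 1.87% of all genes were called, and 1 of the 6 had an unadjusted *P* under 0.05, *TWIST1* (-0.59, SE 0.27, adjusted *P* = 0.281). *NOTCH1* was higher with doxycycline in this line as well (1.38, adjusted *P* = 0.0144). *TWIST2*, at 0.47, 0.77 and 0.76 with and 0.80, 1.17 and 1.00 without doxycycline, was not tested. The N1ICD response minus the *REST* response was called for *SNAI1* (-3.69, SE 0.79, adjusted *P* = 0.00465), *SNAI2* (5.70, SE 0.84, adjusted *P* = 0.000259), *ZEB2* (2.25, SE 0.33, adjusted *P* = 0.000227) and *PRRX1* (3.20, SE 0.41, adjusted *P* = 7.3e-05), 4 of 6 against 15.6% of genes. For *ZEB1* it was -0.75 (adjusted *P* = 0.175) and for *TWIST1* 0.75 (adjusted *P* = 0.194).

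The H82 N1ICD line labelled STING KO resembled the intact line in the members' direction. *SNAI2* rose from 0, 0 and 0.05 to 4.60, 5.96 and 6.23 (5.58, SE 0.30, adjusted *P* = 1.08e-10). *SNAI1* fell from 7.07, 7.66 and 7.55 to 3.86, 3.86 and 3.51, a change of -3.69 (SE 0.37, adjusted *P* = 3.71e-07). *ZEB2* rose from 1.25, 1.27 and 1.44 to 2.01, 2.32 and 2.72 (1.03, SE 0.31, adjusted *P* = 0.0133), which made 3 of 4 members called with a background of 20.2%. This last call was lost without library 55 (0.997) or library 60 (0.846, adjusted *P* = 0.0683). The count is again a description, since *SNAI2* passed the filter in H82 cells only through libraries with doxycycline. *ZEB1* was at 3.12, 3.23 and 3.08 without and 2.61, 2.60 and 2.40 with doxycycline (-0.61, SE 0.29, adjusted *P* = 0.106). *TWIST1*, too low to be tested, went from 0.03, 0.05 and 0 to 0.63, 1.11 and 0.92.

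With doxycycline, 0 of 4 members differed between the line labelled STING KO and the intact one (limma, with 16.5% of all genes called, and 1 of the 4 at an unadjusted *P* under 0.05). The largest difference was that of *SNAI2*, -0.74 (SE 0.30, adjusted *P* = 0.0605). It was -1.04 (adjusted *P* = 0.0147) without library 7 and -1.05 (adjusted *P* = 0.0143) without library 60, and was called in both cases, but -0.24 (adjusted *P* = 0.42) without library 58. The difference of responses was called for 0 of 4 (7.12% of genes, and 0 at an unadjusted *P* under 0.05), with values from -0.68 (SE 0.43, *SNAI2*) to 0.40 (SE 0.44, *ZEB2*), and that of *SNAI2* was -0.18 (adjusted *P* = 0.755) without library 58. Without doxycycline limma called 0 of 4 (14.4% of genes), 1 of them at an unadjusted *P* under 0.05, namely *ZEB2* with a difference of -0.80 (SE 0.31, adjusted *P* = 0.0525), which was -1.04 (adjusted *P* = 0.0198) and called without library 4, and -0.63 without library 6. *NOTCH1* was higher with doxycycline in the line labelled STING KO by 2.10 (adjusted *P* = 0.00113). Its NE marker sum was 11.96 to 12.77 without and 7.76 to 8.66 with doxycycline, and its fibroblast marker sum 1.39 to 2.16 and 5.69 to 6.36.

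COR-L88 cells, the line with the epithelial pair, responded to TAS1440 with more of both. *OVOL1* rose from 2.93, 3.00 and 2.72 with DMSO to 4.75, 5.34 and 5.10 with TAS1440, by 2.18 (SE 0.15, adjusted *P* = 8.73e-08). *GRHL2* rose from 4.02, 3.99 and 4.00 to 4.62, 5.21 and 5.24, by 1.02 (SE 0.15, adjusted *P* = 6.43e-05). *SNAI1* fell from 5.88, 6.50 and 6.25 to 4.57, 4.49 and 4.14, a change of -1.81 (SE 0.23, adjusted *P* = 1.47e-05). The groups of all 3 genes were separate, and 3 of 4 members tested were called against 22.8% of 13134 genes. *GRHL2* was at the fold required, and without library 14 or 15 its change was 0.92 or 0.91 and was not called, with adjusted *P* of 0.0005 and 0.000439. *ZEB1* was at 1.43, 1.25 and 1.40 with TAS1440 and 0.64, 0.71 and 0.56 with DMSO (0.72, SE 0.14, adjusted *P* = 0.000495), without overlap but under the fold required. With a pseudocount of 0.1 in place of 1 it was 1.35 (adjusted *P* = 0.00121).

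The EMT factors that rose in the N1ICD lines were near 0 in COR-L88 cells. *SNAI2* was at 0, 0.04 and 0 with TAS1440, *PRRX1* at 0.37, 0.17 and 0.35 (0.04, 0.02 and 0.06 with DMSO) and *ZEB2* at 0.60, 0.50 and 0.53 (0.10, 0.13 and 0.08 with DMSO). *PRRX1*, *ZEB2* and *TWIST1* had groups without overlap, but none of these genes passed the filter. *TWIST2* was listed at 0 throughout. The NE marker sum was 10.69 to 10.88 with DMSO and 9.21 to 9.48 with TAS1440, and the fibroblast marker sum did not pass 1.18.

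Adding GSI, which blocks the cleavage that activates Notch receptors, separated *SNAI1* from the epithelial pair. With TAS1440 plus GSI *SNAI1* was at 6.23, 5.78 and 6.36, overlapping with DMSO (-0.09, SE 0.23, adjusted *P* = 0.828) and above TAS1440 alone, with a difference of -1.72 for TAS1440 alone (SE 0.23, adjusted *P* = 4.85e-05). *OVOL1* stayed high at 4.69, 4.38 and 4.51, above DMSO by 1.64 (SE 0.15, adjusted *P* = 3.14e-06), and TAS1440 alone exceeded it by 0.53 (SE 0.15, adjusted *P* = 0.0111), under the fold required. *GRHL2* at 4.74, 4.70 and 4.89 was above DMSO by 0.77 (SE 0.15, adjusted *P* = 0.00183) and overlapped with TAS1440 alone (0.25, adjusted *P* = 0.196). *ZEB1* at 1.46, 1.60 and 1.36 also overlapped with TAS1440 alone (-0.11, adjusted *P* = 0.52) and was above DMSO by 0.84 (adjusted *P* = 0.000467). Hence 1 of 4 members was called between TAS1440 and TAS1440 plus GSI (14.7% of genes), and 1 of 4 between TAS1440 plus GSI and DMSO (9.02%), and these comparisons share libraries with the one above. *NOTCH1* mRNA was at 6.71 to 6.75 with GSI and 1.99 to 2.79 with TAS1440 alone.

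In the COR-L88 line labelled STING KO, TAS1440 again lowered *SNAI1*, from 6.36, 6.24 and 6.67 to 4.60, 4.32 and 5.14 (-1.73, SE 0.23, adjusted *P* = 3.66e-05). It raised *OVOL1* from 2.85, 3.03 and 2.71 to 4.31, 4.34 and 4.60 (1.55, SE 0.15, adjusted *P* = 2.81e-06). *GRHL2* moved from 3.86, 3.82 and 3.62 to 4.48, 4.73 and 4.78, by 0.89 (SE 0.15, adjusted *P* = 0.000303), and *ZEB1* from 0.34, 0.91 and 0.53 to 1.45, 1.46 and 1.29, by 0.80 (SE 0.14, adjusted *P* = 0.000331), neither reaching the fold required. That gave 2 of 4 members called with a background of 16%. The difference of the TAS1440 responses was called for 0 of 4 members (4.23% of genes, and 1 at an unadjusted *P* under 0.05), and was largest for *OVOL1* (-0.62, SE 0.21, adjusted *P* = 0.0911). With TAS1440 in both lines, *OVOL1* was lower in the line labelled STING KO, a difference of -0.64 (SE 0.15, adjusted *P* = 0.00771), without overlap and under the fold required (6.53% of genes called), so limma called 0 of 4, with 2 at an unadjusted *P* under 0.05. With DMSO in both lines it called 0 of 4 as well (1.47% of genes), with 0 at an unadjusted *P* under 0.05. *NOTCH1* with TAS1440 was higher in the line labelled STING KO by 1.76 (adjusted *P* = 0.00524).

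KP1 cells carried a different Snail response. KP1 values fit a division of reads by the whole span of a gene, introns included, better than by exon length, and how the table was made is not given in the sources used here. Its levels are therefore compared between samples but not between genes, since on such a scale genes with long introns (*Zeb1*, *Zeb2*, *Prrx1*, *Grhl2* and *Twist2*) sit low. *Snai1* was at 0.11, 0.14 and 0.04 with DMSO and at 2.83, 3.73 and 4.81 with TAS1440, a rise of 3.69 (SE 0.40, adjusted *P* = 9.69e-05). *Snai2* rose from 0.94, 0.95 and 0.91 to 7.02, 5.83 and 6.62 (5.55, SE 0.28, adjusted *P* = 1.57e-06). *Twist1* rose from 0.85, 0.90 and 0 to 4.51, 3.75 and 4.12 (3.54, SE 0.48, adjusted *P* = 0.000374). In none of these did the groups overlap, although the TAS1440 libraries varied widely for *Snai1*. *Prrx1* rose from 0.01, 0 and 0 to 3.16, 1.31 and 2.31 (2.26, SE 0.36, adjusted *P* = 0.00104). This makes 4 of the 5 members tested, where 18.8% of 8260 genes were called, and *Snai1*, *Twist1* and *Prrx1* passed the filter only through the TAS1440 libraries.

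The epithelial factors of KP1 cells were lower with TAS1440. *Ovol1* was at 0.85, 1.13 and 1.32 with DMSO and 0, 0.08 and 0.33 with TAS1440, a difference of -0.96 (SE 0.23, adjusted *P* = 0.00978) without overlap, just under the fold required, and it was called without library 1 (-1.09) or library 6 (-1.06), and was -0.85 without library 3. *Grhl2* was at 0.53, 0.52 and 0.64 and then 0, 0.02 and 0.14, and was not tested. With values rescaled to exon length, an alternative chosen after the data had been seen, *Grhl2* fell by 2.49 (adjusted *P* = 0.000627), *Ovol1* fell by 1.87 (adjusted *P* = 0.0023), *Zeb2* rose by 2.21 (adjusted *P* = 3.85e-05) and *Twist2* by 1.95 (adjusted *P* = 0.00608). *Zeb1* stayed uncalled there too (0.70, adjusted *P* = 0.0204). The scaling thus took the count from 4 to 8 called members of 9.

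With GSI added, *Snai1*, *Prrx1*, *Twist1* and *Ovol1* had groups that overlapped with DMSO, *Twist1* with a wide spread. With TAS1440 plus GSI *Snai1* was at 0.25, 0.44 and 0.06, overlapping with DMSO, and *Prrx1* was again at or next to 0 in all 3 libraries. TAS1440 alone exceeded TAS1440 plus GSI for *Snai1* by 3.54 (SE 0.40, adjusted *P* = 0.000143), for *Prrx1* by 2.26 (SE 0.36, adjusted *P* = 0.00118) and for *Twist1* by 2.98 (SE 0.48, adjusted *P* = 0.00122). *Ovol1*, at 2.17, 1.84 and 1.23 with GSI, was lower with TAS1440 alone, a difference of -1.61 (SE 0.23, adjusted *P* = 0.000649). The exception was *Snai2*, at 2.73, 2.67 and 2.32 with GSI, between the other groups and overlapping with neither. It was below TAS1440 alone by 3.91 (SE 0.28, adjusted *P* = 1.18e-05) and above DMSO by 1.64 (SE 0.28, adjusted *P* = 0.0176). In all, 5 of 5 members tested were called between TAS1440 and TAS1440 plus GSI (16.5% of genes), or 8 of 9 per exon length, and 1 of 5 between TAS1440 plus GSI and DMSO (1.21%). The first count is a description, since *Snai1*, *Twist1* and *Prrx1* passed the filter only through the TAS1440 libraries and *Ovol1* only through those with GSI, the higher group in each case. The last call rests on few libraries, since the adjusted *P* of *Snai2* was 0.0602 to 0.093 without any 1 of libraries 1, 2, 3, 7 or 8. *Twist1* with GSI, at 0.15, 1.06 and 2.24, was too variable to place (0.56 above DMSO, SE 0.48, adjusted *P* = 0.764). The NE marker sum was 9.34 to 9.42 with DMSO, 2.83 to 6.33 with TAS1440 and 9.06 to 9.38 with GSI added, and the fibroblast marker sum 0.556 to 1.26, 4.01 to 4.98 and 0.579 to 2.95, and their part was not tested. Of 2 leukocyte markers 1 was called higher with TAS1440 (summed level 1.22 to 1.41 against 0). In the human libraries the 2 endothelial markers measured stayed under 1, as did at least 3 of 5 leukocyte markers in each group. The leukocyte marker *CD14* was called higher with doxycycline in H69 N1ICD cells (3.28 to 4.79, a difference of 1.51, adjusted *P* = 4.47e-06) and in H82 cells with *REST* KO (1.69, adjusted *P* = 0.000217). Parental H69 cells had it at 4.21, above the vector line without doxycycline (-0.93, adjusted *P* = 0.000917, under the fold required). It was also called higher in H524 cells with the N1ICD vector and no doxycycline against parental cells (1.41, adjusted *P* = 0.0133). The part of *CD14* in the results of these lines was not tested.

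**Figure D3:**
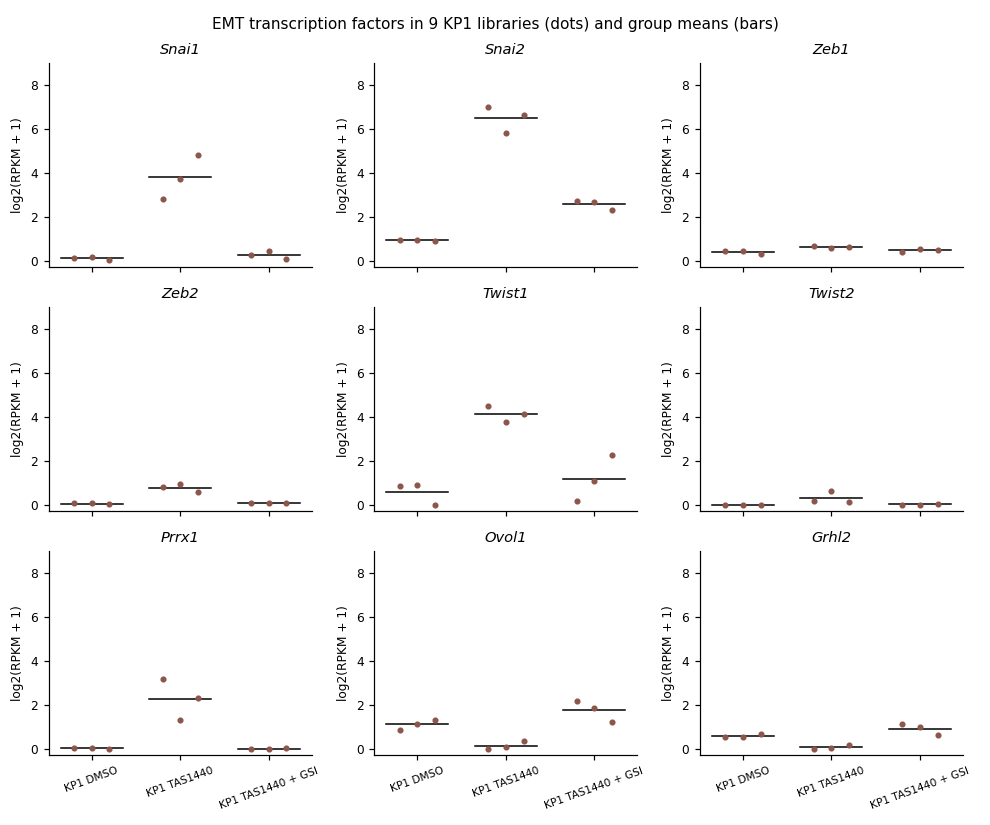
Level of each mouse factor as log2(RPKM + 1), apparently per span of the gene (vertical axis), in the 9 KP1 libraries (dots) with group means (bars) for DMSO, TAS1440 and TAS1440 plus GSI. *Snai1*, *Snai2*, *Twist1* and *Prrx1* are highest with TAS1440 alone, and *Ovol1* is lowest there.

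Lists of mesenchymal genes, epithelial genes and other EMT regulators were chosen with earlier results of these data known, so their counts are a description. Of all genes tested, 14.7% were called higher and 12.4% lower in H82, 11.4% and 7.19% in H524, 21.4% and 20.4% in H69, 15.3% and 7.46% in COR-L88 and 9.09% and 9.7% in KP1 cells. Of a list of 30 mesenchymal genes, 25 of 29 tested rose and 1 fell with N1ICD in H82 cells (median log2 fold change 2.60, against -0.0026 over all genes), led by the smooth muscle genes *ACTA2* (9.80) and *TAGLN* (8.25). In H524 cells 24 of 30 rose and 2 fell (median 2.75), and in H69 cells 26 rose and 1 fell (median 5.83), with the fibrillar collagen gene *COL3A1* at 11.76 and 12.91. COR-L88 cells with TAS1440 had 18 of 19 higher (median 2.45), led by the intermediate filament gene *VIM* (5.81), and KP1 cells 19 of 20 (median 4.14), led by *Vim* (10.41) and the fibronectin gene *Fn1* (7.20). The median of all genes was between -0.018 and 0.083 in these comparisons. *CDH2*, the gene of N-cadherin, was an exception in H524 cells and fell by 2.83. *MMP2*, a matrix metalloprotease gene, fell in all 3 N1ICD lines, by 1.68 (H82), 1.00 (H524) and 3.93 (H69). In H82 cells with doxycycline, 10 of 29 mesenchymal genes were higher and 4 lower in *REST* KO than in intact cells (median 0.31). Of all genes 9.44% were higher and 8.21% lower there. In the H82 line labelled STING KO 1 was higher and 9 lower (median -0.77), with 16.5% of all genes called. With TAS1440, 0 of 19 were higher and 9 lower in the COR-L88 line labelled STING KO (median -0.92), with 6.53% called.

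Epithelial genes did not move one way. Of the 24 measured, 8 of 16 tested rose and 1 fell in H82 cells (median 0.99), with the keratin genes *KRT8* (7.68) and *KRT18* (7.24) highest. In H524 cells 4 of 18 rose and 4 fell (median 0.16), among them the splicing factor gene *ESRP1* (2.42) and the claudin gene *CLDN4*, which fell by 3.36. In H69 cells 17 of 22 fell and 3 rose (median -2.91), and *ESRP1* fell by 8.49. In COR-L88 cells 8 of 24 rose (median 0.76), led by *CDH3* (4.15), the gene of P-cadherin. The part of *OVOL1* and *GRHL2* in these changes was not tested. In KP1 cells 13 of 19 fell (median -1.45), among them *Epcam*, which fell by 3.47. With doxycycline in both, *REST* KO against intact H82 cells had 8 of 16 lower (median -0.97), where 9.44% of all genes were called higher and 8.21% lower, and *KRT8* was lower, with a log2 fold change of -3.78. Without doxycycline 2 of 16 were lower in the KO (median -0.013), namely *KRT8* (-2.11) and *KRT18* (-1.78).

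**Figure D4:**
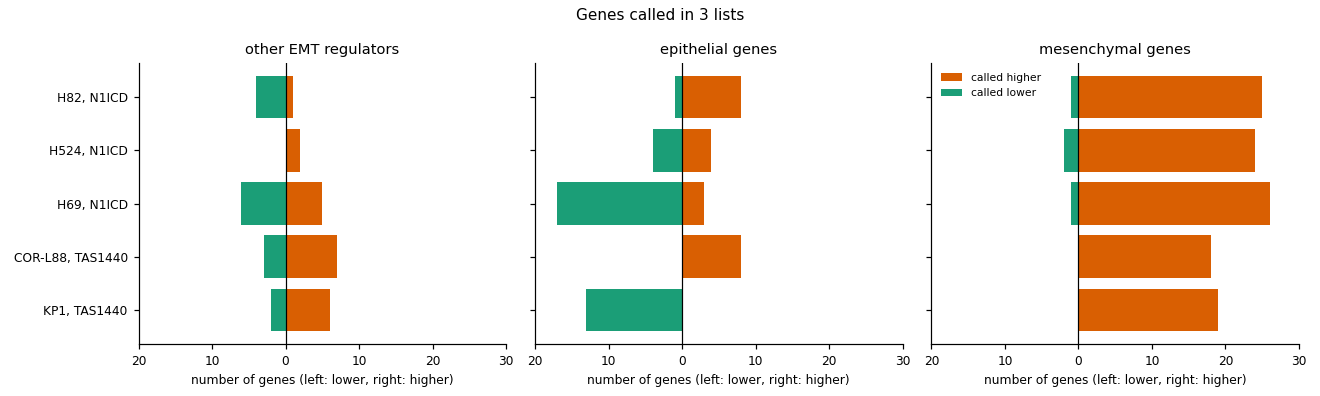
Number of genes called higher (right of 0) and lower (left of 0) in the lists of other EMT regulators, epithelial genes and mesenchymal genes for N1ICD in 3 lines and TAS1440 in COR-L88 and KP1 cells. Of the mesenchymal genes tested, 18 to 26 were called higher in each of the 5 comparisons, while of the epithelial genes 17 of 22 were called lower in H69 and 13 of 19 in KP1 cells, and 8 of 16 were called higher in H82 and 8 of 24 in COR-L88 cells.

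Other regulators of EMT, 27 genes in the human and 26 in the KP1 table, were split. N1ICD raised 1 and lowered 4 of 14 tested in H82 cells (median 0.10), with the chromatin protein gene *HMGA2* falling by 2.68. It raised 2 of 14 in H524 cells (median -0.16), and the forkhead gene *FOXC1* rose by 3.52 there and by 5.10 in H69 cells. In H69 cells 5 rose and 6 fell of 17 (median -0.45), and *OVOL2*, the relative of *OVOL1*, had a mean of 3.68 without doxycycline and was listed at 0 with it, while the *PRRX1* relative *PRRX2* rose by 3.08. TAS1440 raised 7 and lowered 3 of 17 in COR-L88 cells (median 0.72), led by the epithelial ETS factor genes *ELF5* (4.34) and *EHF* (3.07), whereas the related *Elf3* fell by 3.89 in KP1 cells, where 6 rose and 2 fell of 14 (median 0.67). With doxycycline in both, 6 of 14 were higher in *REST* KO than in intact H82 cells (median 0.96), against 9.44% of all genes, and *SCRT1*, a Snail relative of neurons, was higher by 3.44. Without doxycycline 1 of 14 was higher and 1 lower (median -0.016).

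Across the 20 human group means *SNAI1* and *SNAI2* ran against each other (r = -0.80, rho = -0.72), a description of groups that share lines, vectors and control libraries. *OVOL1* and *GRHL2* ran together (r = 0.90, rho = 0.52), which rests on the 5 COR-L88 groups, *SNAI2* ran with *ZEB2* (r = 0.76, rho = 0.59), and *OVOL1* against *ZEB1* (r = -0.73, rho = -0.65). Among all other genes, the pattern of *SNAI1* was most like that of *SSBP3* (r = 0.88, rho = 0.84) and *SLC6A6* (r = 0.85, rho = 0.84). *SNAI2* was most like *OR51E1* (r = 0.96, rho = 0.72) and the tenascin gene *TNC* (r = 0.96, rho = 0.95), and *ZEB2* most like *HEYL*, a Notch target gene (r = 0.96, rho = 0.92), and *MOCS1* (r = 0.94, rho = 0.95). For *ZEB1* the closest were *CLCC1* (r = 0.94, rho = 0.93) and *RBMX2* (r = 0.94, rho = 0.92), for *TWIST1* *SLITRK4* (r = 0.94, rho = 0.85) and *GREM1* (r = 0.93, rho = 0.78), for *PRRX1* *EYA4* (r = 0.96, rho = 0.71) and *IFI27* (r = 0.94, rho = 0.76), and for *OVOL1* *TXNRD1* (r = 0.97, rho = 0.84) and *KIF25-AS1* (r = 0.96, rho = 0.76). *GRHL2* reached r = 1.00 with *SPESP1* and *PCDHB5* at a rho of only 0.74 and 0.66, since its values form a COR-L88 cluster and a cluster near 0.

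**Figure D5:**
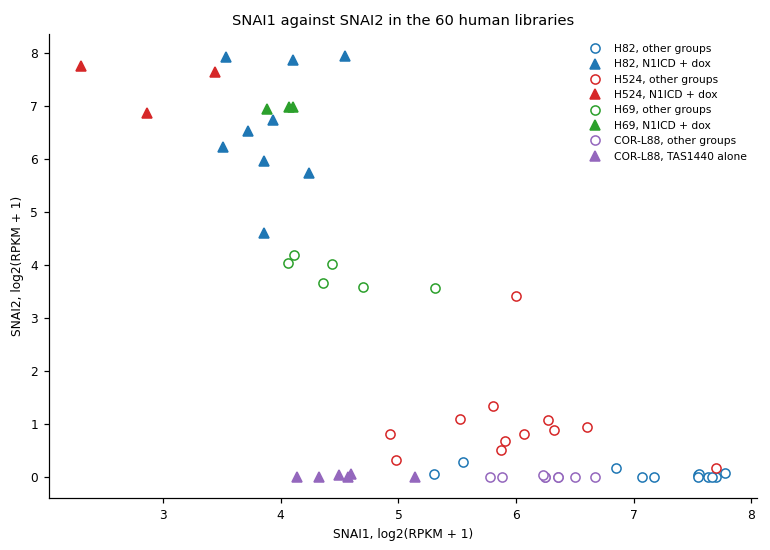
*SNAI1* (horizontal axis) against *SNAI2* (vertical axis), both log2(RPKM + 1), in each of the 60 human libraries. Triangles are N1ICD libraries with doxycycline and COR-L88 libraries with TAS1440 alone, and circles the other groups. N1ICD libraries sit at the upper left with *SNAI2* between 4.60 and 7.95, and every COR-L88 library lies at a *SNAI2* level near 0.

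Lines with a vector and no doxycycline differed from parental cells in few members. *NOTCH1* itself was at 0.88 to 1.45 in H82 cells with the N1ICD vector against 0.01 to 0.04 in parental cells, and at 0.79 to 1.52 against 0.23 to 0.73 in H524 cells, so the vector and N1ICD made without doxycycline cannot be told apart. In H82 cells the N1ICD line without doxycycline had more *SNAI1* than parental cells by 1.38 (SE 0.37, adjusted *P* = 0.0195), 1 of 4 members against 6.41% of genes, with overlapping groups. The call was lost without library 2, 3, 5 or 6 (adjusted *P* from 0.0759 to 0.105), and without library 4 *ZEB1* (1.33, adjusted *P* = 0.000248) and *ZEB2* (1.07, adjusted *P* = 0.0228) were called as well, as was *ZEB1* without library 2 (1.14, adjusted *P* = 0.0198). In H524 cells the N1ICD line without doxycycline had less *TWIST1*, at 0.23, 0.19 and 0.19 against 1.60, 2.34 and 0.95 in parental cells, so that it fell by 1.43 (SE 0.27, adjusted *P* = 0.00213). *TWIST2* followed, listed at 0 in all 3 libraries against 0.67, 0.98 and 0.90, but was not tested. This was 1 of 6 members against 12.1% of genes, and *ZEB1* (-0.91, adjusted *P* = 0.0194) was called in addition without library 23 (-1.03). With only the compared groups in the fit the call of *TWIST1* was lost (adjusted *P* = 0.0648). In the *REST* vector line of H524 cells, by contrast, *TWIST1* stayed at 1.97, 1.94 and 1.48 without doxycycline, and limma called 0 of 6 members (0.264% of genes, and 0 of 6 at an unadjusted *P* under 0.05). In H69 cells it called 0 of 7 (5.27% of genes), with 1 at an unadjusted *P* under 0.05, *OVOL1* (0.38, adjusted *P* = 0.0379).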

How the data were processed

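PolyA RNA of the 69 libraries was prepared with a stranded Illumina kit. The authors deposited log2(RPKM + 1) values, 1 table for the human lines and 1 for KP1, and their processing notes name cutadapt, STAR, RSEM and edgeR, with hg19 for the human and mm10 for the mouse files, and versions are not given in the sources used here. Per the study's methods the values had been scaled by TMM. A length check showed that KP1 values fit division by the whole gene span better than by exon length (interquartile range 1.04 on the log2 scale over 4281 genes, against 2.77 for exon length), which would lower long genes, while human values fit exon length better (2.80 against 3.59 over 4910 genes). Groups were taken from the sample labels. Each line was fitted with limma 3.58.1 in R 4.3.3 (trend, 1 mean per group), with Benjamini-Hochberg adjustment over all genes that had log2 values of at least 1 in at least 3 libraries. Calls needed an adjusted *P* under 0.05 and a change of 1 or more in size on the log2 scale. Differences between lines came from 1 fit of 60 libraries. The fit was tested on simulated data. The 9 genes and all lists were chosen with earlier results of these data known. Named list genes were the 2 with the largest called change in each direction and comparison, or fewer, and genes of like pattern were the 2 with the highest Pearson r over human group means. Alternatives were a pseudocount of 0.1, no filter, quantile normalization, median-centred libraries, no variance trend, only the compared groups, no minimum fold, each library left out and, added later, KP1 values per exon length. Depth in reads is unknown, so no counting interval is given. Python 3.11.15, numpy 2.4.6, pandas 2.3.3 and matplotlib 3.10.9 were used.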

Additional observations from a re-analysis of the deposited data

Results flagged for a closer look

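Responses that differed between groups, each by a limma test of the difference itself, were found for 20 pairs of a gene and a comparison, and the causes were not tested. The doxycycline response with *REST* KO minus that of the intact H82 line was 1.65 for *SNAI2* and 2.84 for *ZEB2*. The N1ICD minus the *REST* response in H524 cells was -3.69 for *SNAI1*, 5.70 for *SNAI2*, 2.25 for *ZEB2* and 3.20 for *PRRX1*. The N1ICD response of H82 minus H524 cells was -1.90 for *ZEB2* and -3.18 for *PRRX1*. That of H69 minus H82 cells was 2.95 for *SNAI1*, -3.21 for *SNAI2*, 1.52 for *ZEB1*, 3.69 for *ZEB2*, 4.72 for *PRRX1* and -2.19 for *OVOL1*. That of H69 minus H524 cells was 2.87 for *SNAI1*, -2.91 for *SNAI2*, 1.67 for *ZEB1*, 1.80 for *ZEB2*, 1.54 for *PRRX1* and -2.52 for *OVOL1*. The comparisons with H69 share its libraries. *NOTCH1* also differed in 4 of these 5 comparisons, the exception being H69 minus H524.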

How the results depend on the processing

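Of 2487 alternative values over 181 results, 2411 kept their side of the threshold, a count of called members within 1.5 times its value included. A change of sign where neither value was called is among these. An example is *SNAI1* in *REST* KO against intact H82 cells with doxycycline, at 0.10 and at -0.15 to 0.36 in the alternatives. Of the rest, 19 lost a call, 29 gained one, 27 counts moved and 1 value reversed with a call in the alternative. The reversed one was *TWIST1* in H69 minus H82 cells, 0.07 and -1.18 (adjusted *P* = 0.0102) with a pseudocount of 0.1, and the cause was not tested. Within 1.5 times, counts for N1ICD went from 4 to 6 in H69, from 4 to 5 in H524 and from 2 to 3 in H82 cells, that for TAS1440 from 3 to 2 or 4 in COR-L88, from 2 to 3 in the COR-L88 line labelled STING KO and from 4 to 5 in KP1 cells, that for H82 labelled STING KO from 3 to 2, that for the difference with *REST* KO from 2 to 3 and that for H69 minus H82 from 6 to 7. Counts moved further as follows. With no minimum fold they were 2 for COR-L88 TAS1440 against TAS1440 plus GSI, 3 for TAS1440 plus GSI against DMSO, 4 for the COR-L88 line labelled STING KO, 1 for TAS1440 in that line against the intact one, 2 for the H524 N1ICD vector and 1 for the H69 vector against parental cells. A pseudocount of 0.1 gave 2 for COR-L88 TAS1440 plus GSI against DMSO, 1 for H82 labelled STING KO against intact without doxycycline, and 2 for the H82 and 2 for the H524 N1ICD vector. With only the compared groups both vector counts were 0. Per exon length the KP1 counts were 8 for TAS1440 against DMSO and 8 against TAS1440 plus GSI. Leaving out 1 library gave 0 to 1 for H82 labelled STING KO against intact, with and without doxycycline, 0 to 1 for KP1 TAS1440 plus GSI against DMSO, 0 to 3 for the H82 and 1 to 2 for the H524 N1ICD vector. *ZEB2* in H82 labelled STING KO was 0.86 with quantile normalization and *GRHL2* in COR-L88 cells 0.89, both under the fold required. No paired analysis was possible because the numbers in the titles run through the series and the compared groups share none. Values near 0 in RPKM limit what can be said of *TWIST2*, and of *PRRX1* and *OVOL1* in H82 cells.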
